A study of Mus musculus with 5 samples.

Results

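The genes for 10 inflammatory mediators were examined in maps of DNaseI hypersensitive sites (DHSs), where chromatin lies open to the nuclease DNaseI. They were the cytokine genes Tnf, Il1a, Il1b, Il6, Il12b, Il18, Il1rn and Il10 and the enzyme genes Ptgs2 and Nos2, chosen by name out of 21000 protein-coding genes and found under their RefSeq symbols. For each gene a DHS was counted if it came within 1 kb of any annotated transcription start site (TSS) of the gene, here called a promoter site, or if its middle lay up to 100 kb from a TSS of the gene and no other protein-coding gene had a closer TSS, here called a distal site. By this rule 53 of 135173 deposited DHSs belonged to the 10 genes, and 14 of the 53 were promoter sites.

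The study followed blood formation in vitro from a strain 129 mouse embryonic stem cell line in which GFP reports on Brachyury, a gene of mesoderm (Bry:GFP). The populations used here were mesoderm (MES, Bry:GFP+ Flk1-), hemangioblasts (HB, Bry:GFP+ Flk1+), hemogenic endothelium (HE, Tie2+ cKit+ CD41-, with Bry.GFP+ in its label), CD41+ hematopoietic progenitors (HP) and CD11b+ macrophages (MAC). The study also mapped DHSs in undifferentiated embryonic stem cells, which are not among these 5 stages. Each of the 5 stages is 1 sample with 1 list of DHSs, and the label of MAC names a first and a second replicate together. Whether its list comes from pooled reads or merged calls is not given in the sources used here, so MAC may rest on more material than the other lists, and the part of this in the MAC counts was not tested. With n = 1 per stage there is no replicate error and no test between stages, so the values below describe these 5 lists. All 5 came from 1 reporter line grown in culture and sorted by surface markers, and a sorted population holds many cells, so a site open in some of the cells cannot be told apart from a weaker site in all of them.

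The lists held 21949 (MES), 24729 (HB), 33305 (HE), 17734 (HP) and 37456 (MAC) DHSs, with median widths of 800, 900, 1200, 900 and 600 bp. The files give positions only. Totals of aligned reads that the study lists for these samples, lowest for HP, were not used here, so a gene without a listed DHS is not thereby shown to have closed chromatin. Promoter sites of the defining genes followed the labels in part. Itgam (which encodes CD11b), Csf1r, Adgre1 and Lyz2 had one in MAC only, Tek and Cdh5 in HE only, and T (Brachyury) in MES and HB only. Itga2b, which encodes CD41, had one in HE and HP, Gfi1b, a gene of progenitors, in MAC only, and Kdr (Flk1) and Cd68 in every stage. Kit, whose product is a sort marker of HE, and Etv2 had one in each stage but MAC, and the mesodermal genes Mixl1 and Eomes in MES, HB and HE.

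Macrophages make these cytokines and enzymes when pattern-recognition or cytokine receptors are engaged. The signal reaches the genes through transcription factors such as NF-kB, AP-1 and the interferon regulatory factors, which in macrophages bind largely at enhancers that the lineage factors PU.1 and C/EBP have already opened. TNF, the IL-1 cytokines and IL-6 start and spread inflammation, whereas the IL-1 receptor antagonist and IL-10 restrain it, and the enzymes encoded by Ptgs2 and Nos2 make prostaglandin precursors and nitric oxide. The study's text describes MAC as differentiated from CD41+ cells and names no inflammatory stimulus.

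Example sequences of promoters and regions are printed from the RefSeq assembly GRCm38.p6 (the mm10 primary chromosomes), 5′ to 3′. Capitals mark every match, on either strand, to the core letters searched: GAGGAAG for PU.1, TTGCNNAA for C/EBP, TGANTCA for AP-1, TGTGGT for RUNX, TATAAA for the TATA box, and for NF-kB a run of GGG, any 3 bases and TTCC. An interferon-response core (GAAA, any 2 bases, GAAA) was searched as well and matched none of the stretches printed. A match is a description of the letters and says nothing about binding.

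The first set is the 250-base stretch before the TSS of 4 genes, on the gene's own strand, shown because their DHS patterns differ and Ptgs2 has the CpG-rich promoter. Tnf (chr17:35202008-35202257, minus strand) had a MAC site only, Il1b (chr2:129371140-129371389, minus strand) and Il6 (chr5:30012864-30013113, plus strand) had no promoter site in any list, and Ptgs2 (chr1:150099781-150100030, plus strand) had one in HB, HE and MAC.
Tnf: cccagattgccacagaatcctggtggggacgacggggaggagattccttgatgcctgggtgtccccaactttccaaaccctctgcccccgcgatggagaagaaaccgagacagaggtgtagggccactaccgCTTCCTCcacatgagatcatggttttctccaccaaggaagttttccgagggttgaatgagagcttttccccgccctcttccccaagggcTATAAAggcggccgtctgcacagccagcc
Il1b: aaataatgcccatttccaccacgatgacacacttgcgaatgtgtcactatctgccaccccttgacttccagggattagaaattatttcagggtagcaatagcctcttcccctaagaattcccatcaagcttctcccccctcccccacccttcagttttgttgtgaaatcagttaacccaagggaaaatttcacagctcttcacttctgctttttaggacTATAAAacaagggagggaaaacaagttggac
Il6: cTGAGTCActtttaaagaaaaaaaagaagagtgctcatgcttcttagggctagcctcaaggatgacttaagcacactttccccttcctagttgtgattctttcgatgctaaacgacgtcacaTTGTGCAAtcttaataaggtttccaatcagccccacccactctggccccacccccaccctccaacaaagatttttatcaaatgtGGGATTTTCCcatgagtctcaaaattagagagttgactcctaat
Ptgs2: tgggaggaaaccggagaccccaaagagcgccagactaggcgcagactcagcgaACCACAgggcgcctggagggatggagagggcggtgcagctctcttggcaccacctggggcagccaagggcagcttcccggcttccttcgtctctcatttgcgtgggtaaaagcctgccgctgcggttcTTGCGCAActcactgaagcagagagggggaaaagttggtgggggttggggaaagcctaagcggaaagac

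RefSeq promoter windows were at hand for 8 of the 10 genes, in 10 windows because Il1rn has 3, and Il10 and Nos2 had no entry. The TATAAA letters stood 29 bases before the TSS of Tnf, 32 before that of Il1a and 31 before that of Il1b. Those are 3 of the 10 windows, and 2.59% of all 20488 windows held the letters between 20 and 40 bases before the TSS. The NF-kB letters stood in 4 windows (Il6 and the 3 of Il1rn) against 5.79% of all windows, and the AP-1 letters in 3 (Il1a, Il6 and the first of Il1rn) against 7.11%. The PU.1 letters stood in 2 windows (Tnf and Il1a) against 13.2%, the C/EBP letters in 2 (Il6 and Ptgs2) against 10.1%, and the RUNX letters in 2 (Il18 and Ptgs2) against 14.4%. Only the Ptgs2 window was CpG-rich (GC share of at least 0.5 and observed over expected CpG of at least 0.6), as were 46.5% of all windows. The 3 windows of Il1rn overlap in part, and with 10 windows these shares carry no test.

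The second set is the central 300 bases, plus strand, of 5 regions, shown as examples of MAC-only regions with several kinds of motif (Il1b and Il10) and of regions that MAC shared with an earlier stage (Il12b and Nos2). The upstream region of Il1b (chr2:129373325-129373624) and the downstream region of Il10 (chr1:131038165-131038464) were in MAC only. Each held 4 kinds of motif, the most of the 41 regions, so they are not typical. Other MAC-only regions, such as the one 64.9 kb upstream of Il6, held none. The shared upstream regions of Il12b (chr11:44390164-44390463, at 9.8 kb, and chr11:44398914-44399213, at 1.0 kb) and the upstream region of Nos2 (chr11:78876039-78876338) were also listed before MAC.
Il1b upstream: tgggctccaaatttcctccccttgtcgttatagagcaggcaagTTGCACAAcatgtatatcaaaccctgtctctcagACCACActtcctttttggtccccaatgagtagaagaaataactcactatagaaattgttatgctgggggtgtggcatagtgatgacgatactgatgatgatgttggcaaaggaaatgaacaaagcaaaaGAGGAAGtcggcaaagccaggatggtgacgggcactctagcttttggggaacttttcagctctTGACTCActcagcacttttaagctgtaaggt
Il10 downstream: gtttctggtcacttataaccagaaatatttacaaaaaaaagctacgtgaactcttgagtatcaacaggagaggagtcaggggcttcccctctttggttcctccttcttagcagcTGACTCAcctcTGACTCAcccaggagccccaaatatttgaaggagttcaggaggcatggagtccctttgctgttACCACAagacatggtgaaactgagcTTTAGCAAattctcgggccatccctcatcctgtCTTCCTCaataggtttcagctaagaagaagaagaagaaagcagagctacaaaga
Il12b 9.8 kb upstream: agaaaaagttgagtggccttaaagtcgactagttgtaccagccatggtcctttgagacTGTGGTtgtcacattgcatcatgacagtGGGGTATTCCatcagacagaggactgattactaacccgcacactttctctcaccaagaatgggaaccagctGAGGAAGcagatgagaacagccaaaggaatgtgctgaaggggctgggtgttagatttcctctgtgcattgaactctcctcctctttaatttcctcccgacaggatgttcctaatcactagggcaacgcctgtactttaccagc
Il12b 1.0 kb upstream: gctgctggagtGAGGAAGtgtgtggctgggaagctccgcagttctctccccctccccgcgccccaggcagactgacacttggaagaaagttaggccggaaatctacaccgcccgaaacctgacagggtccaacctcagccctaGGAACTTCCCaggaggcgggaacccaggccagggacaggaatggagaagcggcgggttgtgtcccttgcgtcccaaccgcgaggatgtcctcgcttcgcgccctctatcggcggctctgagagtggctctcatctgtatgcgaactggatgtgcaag
Nos2 upstream: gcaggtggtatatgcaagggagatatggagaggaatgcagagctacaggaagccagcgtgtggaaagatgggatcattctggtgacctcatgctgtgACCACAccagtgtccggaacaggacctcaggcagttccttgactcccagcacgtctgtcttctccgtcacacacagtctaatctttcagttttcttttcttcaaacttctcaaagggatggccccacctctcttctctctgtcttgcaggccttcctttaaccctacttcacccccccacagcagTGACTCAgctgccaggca

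MAC held 31 of the 53 sites, HE 12, MES 5, HB 4 and HP 1. MAC thus had 58.5% of the sites of these genes and 27.7% of all listed DHSs, HE 22.6% against 24.6%, MES 9.43% against 16.2%, HB 7.55% against 18.3% and HP 1.89% against 13.1%. Per 10000 DHSs of its own list, MAC had 8.28 sites at these genes (95% Wilson interval 5.83 to 11.7), HE 3.6 (2.06 to 6.3), MES 2.28 (0.973 to 5.33), HB 1.62 (0.629 to 4.16) and HP 0.564 (0.0995 to 3.19). The intervals cover counting error only. They take sites of the same gene as independent and leave out differences between genes and between libraries. Their overlap is therefore no test between stages.

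Each gene had a mean of 3.1 sites in MAC, against 1.64 over all 21000 genes. In the earlier lists the means were below those of all genes: 0.5 against 1.04 in MES, 0.4 against 1.15 in HB, 1.2 against 1.48 in HE and 0.1 against 0.859 in HP. The median gene of the 10 had 3 sites in MAC and the median of all genes was 1. These genes also have more room around them, with a median of 80.1 kb for which they are the nearest gene against 49 kb over all genes. Per 100 kb of that stretch there were 3.9 sites in MAC against 2.29 for all genes, and in the earlier lists 0.63 against 1.45 (MES), 0.504 against 1.6 (HB), 1.51 against 2.06 (HE) and 0.126 against 1.2 (HP).

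**Figure D1:**
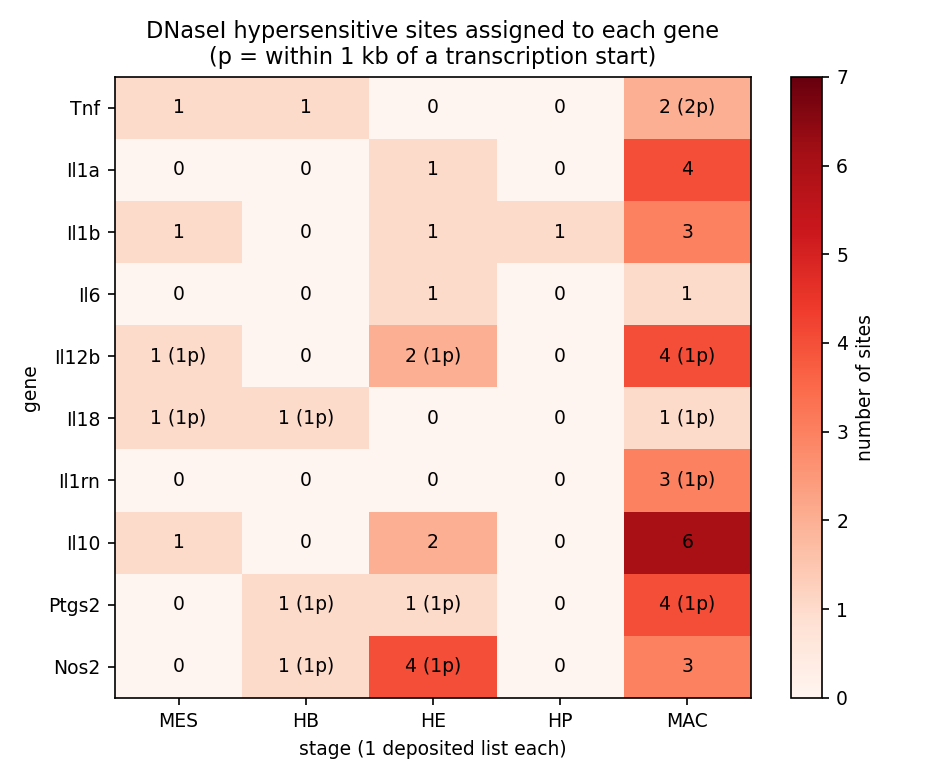
Number of DHSs assigned to each of the 10 genes (rows) in each stage (columns, 1 list each), with the promoter sites among them in parentheses. The MAC column holds 31 sites and the HP column 1, a distal site of Il1b.

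All 10 genes had at least 1 site in MAC, against 66.2% of all genes. In HE 7 of 10 had one against 71%, in MES 5 against 65.5%, in HB 4 against 67.2% and in HP 1 against 58.3%. The MAC count exceeded the count of each other stage for 7 genes, against 22.7% of all genes, and the exceptions were Il6, Il18 and Nos2. None of the 10 had a site in all 5 stages, where 50.9% of all genes had one.

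Promoters gave another picture. A promoter site was listed in MAC for 5 genes (Tnf, Il12b, Il18, Il1rn and Ptgs2), a share close to the 50.2% of all genes. Of these, Tnf and Ptgs2 were left when sites narrower than the median of the list were dropped, and also when each list was cut to its 17734 widest sites. It was listed for 2 genes in MES (57.2% of all genes), 3 in HB (58.9%), 3 in HE (61.7%) and 0 in HP (50.1%). Tnf and Il1rn had a promoter site in MAC and in no other stage, a pattern of 1.77% of all genes. Il1a, Il1b, Il6 and Il10 had no promoter site in any stage, and neither had 32.4% of all genes. Of the 31 MAC sites 25 were distal, or 80.6%, against 66.2% of the 34488 MAC sites assigned to all genes by the same rule.

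**Figure D2:**
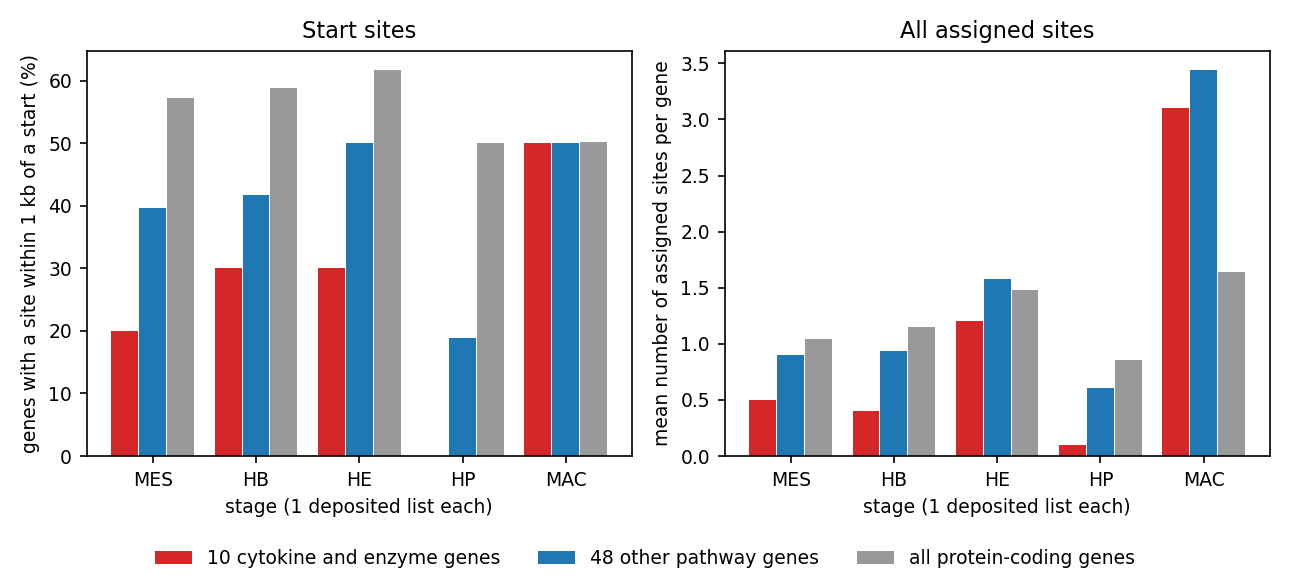
Left, percentage of genes with a DHS within 1 kb of a TSS in each stage (1 list each) and right, mean number of assigned DHSs per gene, for the 10 genes, 48 other genes of the same pathways and all 21000 protein-coding genes. In MAC the promoter shares of the 3 sets are 50, 50 and 50.2%, whereas the means are 3.1, 3.44 and 1.64.

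The 53 sites fell into 41 regions once sites of different stages with overlapping central windows were merged. Of these 25 were listed in MAC only, or 61%, against 31% of all 68846 merged regions. Another 6 were in HE only, 1 in HB only and 1 in MES only. The remaining 8, or 19.5%, were listed in at least 2 stages, against 39.8% of all regions. Of the 31 regions in MAC, 6 had been listed in an earlier stage, or 19.4%, against 42.9% of all MAC regions. The shares over all regions were not matched for distance from a TSS. A promoter site in every stage was listed for 43.4% of all genes and none of the 10, and its part in these shares was not tested. MAC shared 5 of the 12 HE regions, 3 of the 5 MES regions, 2 of the 4 HB regions and 0 of the 1 in HP, where over all regions MAC shared 42.5% of those in HE, 51.5% in MES, 47.1% in HB and 66.2% in HP. By position 29 of the 41 were intergenic, 6 intronic and 6 exonic, against 44.7%, 42.5% and 12.7% of all regions, and 11 lay inside one of the 10 genes.

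**Figure D3:**
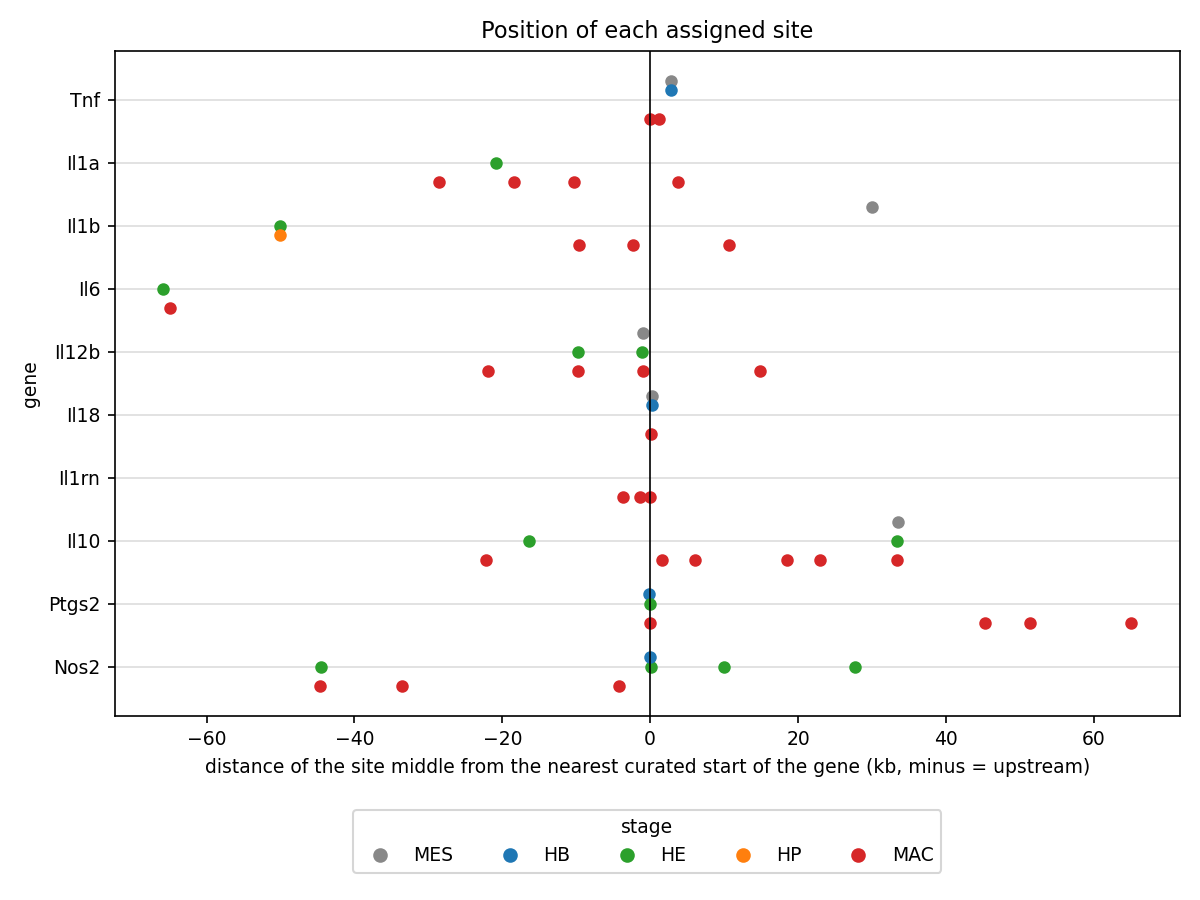
Distance in kb of the middle of each DHS from the nearest curated TSS of its gene (minus is upstream), coloured by stage. The distances run from 65.8 kb upstream (Il6, HE) to 65.1 kb downstream (Ptgs2, MAC), and the MAC points are spread over all 10 genes.

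Among the initiating cytokines, Tnf encodes tumor necrosis factor, a trigger of fever, leukocyte adhesion and cell death. Tnf (chr17:35199367-35202007, minus strand, 3.34 kb from Lta) had 1 site in MES, 1 in HB and 0 in HE, then 0 in HP and 2 in MAC. The MES site (600 bp) and the HB site (500 bp) were 1 region at the far end of the gene, with its middle 2.8 kb past the TSS, just beyond that end, and it was absent from the MAC list. The MAC sites covered the TSS (400 bp, middle 20 bp from it) and an intron (900 bp, middle 1170 bp past it). So the earlier and the MAC regions of this compact gene did not coincide, with the middles of the merged regions at least 1652 bp apart. The shared MES and HB region held the NF-kB letters in 1 stretch that matches on both strands, and the AP-1 letters. Of the neighbouring lymphotoxin genes, Ltb had a promoter site in HB and HE and Lta in HB, and neither had one in MAC.

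Il1a and Il1b encode the agonists of the IL-1 receptor, of which IL-1 beta is cut to its active form by caspase-1. Il1a (chr2:129299609-129310186, minus strand) had 0 sites in MES, 0 in HB and 1 in HE, then 0 in HP and 4 in MAC. The HE site, 20.8 kb upstream, was the widest of all 53 at 1700 bp, and the MAC sites stood 3.7 kb past the TSS, in an exon of a noncoding RNA (700 bp), and 10.3, 18.5 and 28.5 kb upstream (1000, 200 and 900 bp). No Il1a site of HE was shared with MAC, although the HE site lay between 2 of the MAC sites. Il1b (chr2:129364569-129371164, minus strand) had 1 site in MES, 0 in HB and 1 in HE, then 1 in HP and 3 in MAC. The MAC sites stood 10.6 kb past the TSS (1000 bp) and 2.3 and 9.6 kb upstream (900 and 1100 bp).

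The Il1b region 2.3 kb upstream, in an intron of the antisense gene Il1bos, is the one printed above with matches to the C/EBP, RUNX, PU.1 and AP-1 letters. The HE and HP sites of Il1b (900 and 800 bp) were 1 region, 50.1 kb upstream, and it was the only site of HP among the 10 genes. The MES site (400 bp), 29.9 kb past the TSS, lay in sequence of 13.3% GC of which 67% is masked as repeat in the assembly. A GC share that low or lower was found in 0.016% of all regions, and no other region of these genes was over 50% repeat, and the part of this sequence in the MES call was not tested. Ckap2l, the gene on the other side of Il1a, had a promoter site in every stage.

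Il6 encodes a cytokine that drives the acute-phase response. Il6 (chr5:30013114-30019975, plus strand) had 0 sites in MES, 0 in HB and 1 in HE, then 0 in HP and 1 in MAC, although it is the nearest gene over 130 kb. The sites lay side by side, 65.8 kb upstream in HE and 64.9 kb upstream in MAC, both 900 bp wide, with middles 920 bp apart and no overlap. Il6 is thus a gene with a distal site in MAC and HE but nothing listed near its promoter, which holds the NF-kB, C/EBP and AP-1 letters in the sequence printed above. Both flanking genes, Dnajb6 and Tyms, had promoter sites in every stage.

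Il12b encodes the p40 subunit shared by IL-12 and IL-23. Il12b (chr11:44400063-44414677, plus strand) had 1 site in MES, 0 in HB and 2 in HE, then 0 in HP and 4 in MAC. A region 1.0 kb upstream, printed above, was listed in MES (400 bp), HE (1000 bp) and MAC (400 bp). It was 1 of only 3 CpG-rich regions among the 41, against 18.6% of all regions. The region at 9.8 kb, also printed, was listed in HE (1100 bp) and MAC (600 bp), and both regions held the PU.1 and NF-kB letters. Sites 22.0 kb upstream (400 bp) and 14.9 kb past the TSS (900 bp) were in MAC only. The promoter call of Il12b rests on the edge of the region at 1.0 kb, since none of its sites came within 100 bp of the TSS.

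Il18 encodes an IL-1 family cytokine that many cell types hold as an inactive precursor. Il18 (chr9:50554700-50581841, plus strand) had 1 site in MES, 1 in HB and 0 in HE, then 0 in HP and 1 in MAC, of 600, 700 and 500 bp, all at the TSS. These sites cannot be given to Il18 alone, since Bco2, on the opposite strand, starts 0.438 kb inside Il18 and, from another TSS, 1.04 kb before it, and had a promoter site in the same 3 stages. Il18 was the only one of the 10 with a promoter site in both MES and HB. A further 2 MAC sites lay in its introns, 12.9 and 15.7 kb past the TSS (300 and 600 bp), but were nearest to the TSS of Tex12 and were not counted. No other gene of the 10 had such sites.

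Among the restraining cytokines, Il1rn encodes the receptor antagonist that blocks IL-1 signaling. Il1rn (chr2:24336860-24351491, plus strand) had 0 sites in MES, HB, HE and HP and 3 in MAC, so it was the only gene of the 10 listed in MAC alone. The MAC sites were 1.4 kb upstream of the first TSS (700 bp), in an intron 3.6 kb upstream of the second curated TSS counted (700 bp) and over that TSS, 17 bp from it (300 bp). Of its neighbours Il1f10 had no promoter site in any stage and Psd4 had one in HE and MAC.

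Il10 encodes the main cytokine that damps macrophage activation. Il10 (chr1:131019845-131024970, plus strand) had 1 site in MES, 0 in HB and 2 in HE, then 0 in HP and 6 in MAC, the highest MAC count of the 10 genes. Of all genes 5.86% had at least 6 sites in MAC. The MAC sites stood 22.2 kb upstream (200 bp), in a coding exon 1.6 kb past the TSS (900 bp) and 6.1, 18.5, 23.0 and 33.5 kb past it (600, 400, 300 and 300 bp). The last was also listed in MES (400 bp) and HE (700 bp), whereas the region 16.4 kb upstream (1100 bp) was in HE only. The MAC region 18.5 kb past the TSS, printed above, held 2 matches to the AP-1 letters and 1 each to the RUNX, C/EBP and PU.1 letters, and the region shared with MES and HE held none of the letters searched. Il10 had no promoter site in any stage. The neighbouring cytokine gene Il19 had none either, and Mapkapk2 on the other side had one in every stage.

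**Figure D4:**
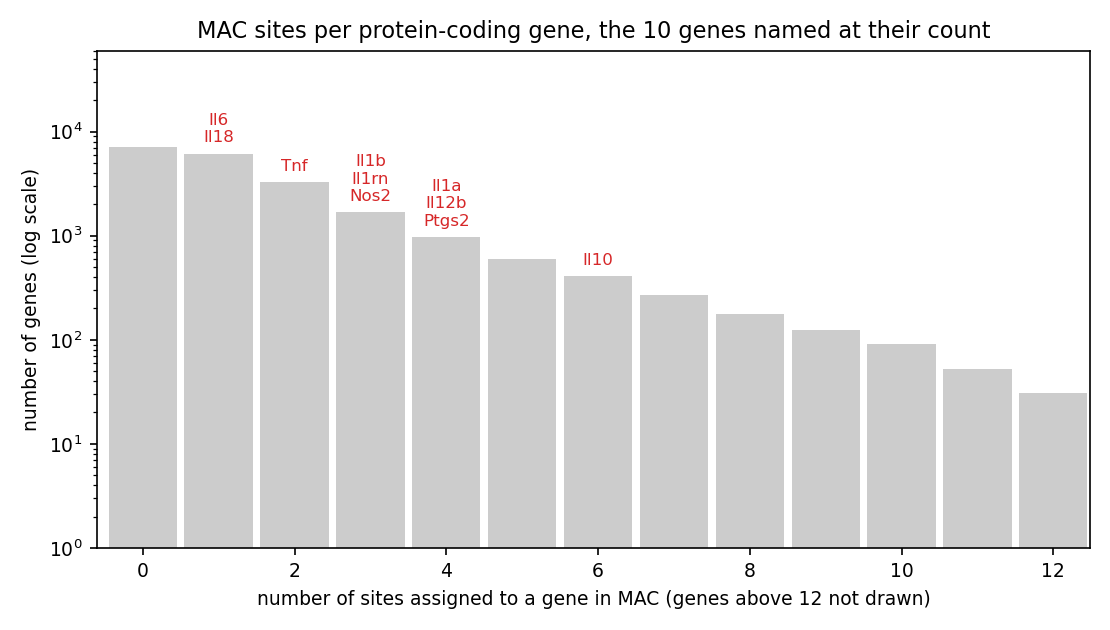
Number of protein-coding genes (log scale) with each count of MAC DHSs, with the names of the 10 genes above their count. Il10 stands at 6, Il1a, Il12b and Ptgs2 at 4, Il1b, Il1rn and Nos2 at 3, Tnf at 2 and Il6 and Il18 at 1.

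Of the enzymes, Ptgs2 encodes cyclooxygenase-2, the inducible enzyme of prostaglandin synthesis. Ptgs2 (chr1:150100031-150108234, plus strand) had 0 sites in MES, 1 in HB and 1 in HE, then 0 in HP and 4 in MAC. The HB (700 bp), HE (1200 bp) and MAC (700 bp) sites formed 1 CpG-rich region over the TSS, which made Ptgs2 the only gene of the 10 with a promoter site in HB, HE and MAC. The 3 other MAC sites stood 45.2, 51.4 and 65.1 kb past the TSS (300, 700 and 1000 bp), well beyond the gene. Of all genes 13.3% had at least 4 sites in MAC. However, Ptgs2 is the nearest gene over 169 kb, and its 2.36 MAC sites per 100 kb of that stretch were close to the 2.29 of all genes. The neighbouring gene Pla2g4a, which encodes the phospholipase that frees the arachidonic acid used by this enzyme, had a promoter site in MAC only, and Pdc on the other side had none in any stage.

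Nos2 encodes the inducible nitric oxide synthase. Nos2 (chr11:78920787-78960226, plus strand) had 0 sites in MES, 1 in HB and 4 in HE, then 0 in HP and 3 in MAC, and was the only one of the 10 with more sites in HE than in MAC. Of all genes 9.92% had at least 4 sites in HE. The HE sites were 44.6 kb upstream (1000 bp), at the second curated TSS (800 bp), in an intron 10.0 kb (1000 bp) and in a coding exon 27.7 kb (1000 bp) past the nearest TSS. The HB site (400 bp) lay at the third curated TSS, with a middle 396 bp from that of the HE site. These intervals overlap, although their central windows overlapped too little to be merged, and merging whole intervals joined them. MAC had no promoter site for Nos2: its sites were 44.6, 33.6 and 4.2 kb upstream (400, 1000 and 300 bp), and the first was shared with HE. So all Nos2 sites inside the gene were listed in HB or HE and those of MAC lay upstream of it. Lgals9 on 1 side had a promoter site in HE and MAC, and Lyrm9 on the other in every stage.

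Set against their own lists, the sites of these genes were narrow before MAC. None of the 5 MES sites, the 4 HB sites and the 1 HP site was as wide as the median of its list, and 2 of the 12 HE sites (at Il1a and Ptgs2) were. Of the whole lists 50.4% (MES), 57% (HB), 54% (HE) and 51.3% (HP) are that wide. The whole lists were not matched for promoter content. In MAC 18 of 31 were at or above the median, where 51% of the whole list is. Widths ran from 400 to 600 bp in MES, from 400 to 700 in HB, from 700 to 1700 in HE and from 200 to 1100 in MAC, and the HP site was 800 bp.

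**Figure D5:**
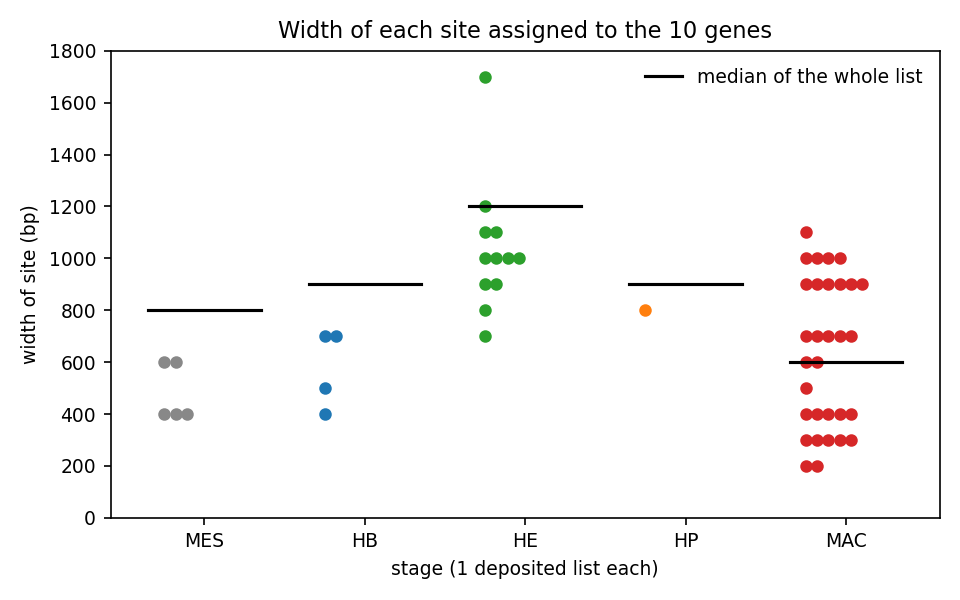
Width in bp of every DHS assigned to the 10 genes, 1 point each, by stage, with a bar at the median width of the whole list of that stage. The MES, HB and HP points lie below the bar, whereas 18 of the 31 MAC points lie on or above it.

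Motif letters were counted in the central 300 bases of the 41 regions. The RUNX letters were in 13 regions (31.7%, against 22.6% of all 68842 regions with sequence), the AP-1 letters in 11 (26.8% against 17%), the C/EBP letters in 10 (24.4% against 13.6%) and the PU.1 letters in 8 (19.5% against 19.2%). The NF-kB letters were in 5 (12.2% against 5.62%) and the interferon-response letters in 3 (7.32% against 3.62%). In the 31 MAC regions the PU.1 share was 22.6% against 23.1% of all MAC regions, the C/EBP share 25.8% against 16.8%, the AP-1 share 29% against 21%, the RUNX share 35.5% against 24% and the NF-kB share 9.68% against 5.38%. The interferon-response share in MAC regions was 6.45% against 4.28%. Since 25 of the 31 were in MAC only, the shares over all MAC-only regions are of use as well, at 27.8% for PU.1, 22.3% for C/EBP, 27.2% for AP-1, 29.5% for RUNX, 4.71% for NF-kB and 5.39% for the interferon-response letters. With 41 regions each share rests on few.

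The 48 other genes of the same pathways are a hand-made list of related cytokines, receptors, processing proteases and inflammasome parts, prostanoid genes and arginine-metabolism genes, and all were found. A promoter site was listed for 19 of them in MES (39.6%), 20 in HB (41.7%) and 24 in HE (50%), then 9 in HP (18.8%) and 24 in MAC (50%). Over all genes the shares were 57.2% (MES), 58.9% (HB), 61.7% (HE), 50.1% (HP) and 50.2% (MAC), so the pathway shares were nowhere higher. Their mean number of sites was 0.896 (MES), 0.938 (HB), 1.58 (HE), 0.604 (HP) and 3.44 (MAC). More sites in MAC than in each other stage were listed for 34 of 48 (70.8%), against 22.7% of all genes. A promoter site in MAC only, the pattern of 1.77% of all genes, was listed for 7: the cytokine subunits Il23a and Ebi3, the receptor chain Il12rb2, the IL-18 inhibitor Il18bp, the protease Casp4 and the prostaglandin genes Pla2g4a and Ptges. No promoter site in any stage was listed for 13, where 32.4% of all genes have none, among them the cytokine genes Il12a, Il27, Osm and Tgfb1, the receptor genes Il12rb1, Il18r1 and Il18rap, the processing genes Casp1, Pycard and Gsdmd, and Alox5ap and Nos1.

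By group, the MAC count was highest for 12 of 14 receptor genes, 9 of 12 prostanoid genes, 6 of 10 cytokine genes, 4 of 6 processing genes and 3 of 6 arginine genes. Over all genes this share was 22.7%. The partners of the 10 genes differed among themselves. For the p40 subunit of Il12b, the partner genes were Il23a with 1 site in MAC and none before, and Il12a with 0 sites in MES, 2 in HB and 4 in HE, then 1 in HP and 5 in MAC. For Il18, the receptor genes Il18r1 and Il18rap had 0 and 1 sites in MAC, Casp1 0 and Il18bp 4. For Il10 the receptor gene Il10ra had 1, 0, 1, 1 and 7 sites from MES to MAC, and for Ptgs2 the constitutive counterpart Ptgs1 had 0, 2, 5, 1 and 10.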

How the data were processed

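The authors sorted the cells freshly, digested them with DNaseI and sequenced the fragments. Per the study's methods they trimmed reads with CutAdapt, aligned them to mm10 with Bowtie (SHRiMP for SOLiD reads), kept unique reads, used Picard to remove duplicates and DFilter, in 100 bp bins, to call sites. The labels' processing notes also name HOMER, and versions are not given in the sources used here. The deposited files hold chromosome, start and end positions in bp, with no score, signal or read count, so they give no depth, and the aligned read totals that the study lists were not used here. Starts were read as counted from 0, and positions are given counted from 1.

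TSS came from RefSeq for GRCm38.p6. Nearest genes were sought among curated protein-coding transcripts, and promoter sites by any annotated TSS of the gene. Merging used 500 bp windows around each middle that overlapped by at least 125 bp. The motifs were exact letters on both strands, and matches to different motifs may overlap. Promoter windows ran from 250 bases before to 50 after the TSS, of which the part before is printed.

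The 10 genes and the pathway, marker and motif lists were chosen with earlier results of these data known. Named were all 10 genes, their promoter regions, for each the distal region in most stages, pathway genes with a promoter site in MAC only or in no stage, and the flanking genes. Partner genes of Il12b, Il18, Il10 and Ptgs2, and other regions, were named after their values were seen. A further pathway gene is counted but not reported by name here. With 1 sample per stage no test was run. The assignment and merging were tested on simulated data. Python 3.11.15, pandas 2.3.3, numpy 2.4.6 and matplotlib 3.10.9 were used. Alternatives varied site width, list length, reach, TSS set, edges, merging and promoter sites.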

Additional observations from a re-analysis of the deposited data

How the results depend on the processing

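Of 107 alternative values 81 stayed within 1.5 times the reported value and 26 did not. Keeping sites no narrower than the median of their list left 0, 0, 2, 0 and 18 sites in MES, HB, HE, HP and MAC, promoter sites for 0, 0, 1, 0 and 2 of the 10 genes, and promoter sites for 11, 16, 14, 6 and 14 of the 48 pathway genes. Keeping the 17734 widest sites of every list left 4, 1, 2, 1 and 18 sites, promoter sites for 2, 1, 1, 0 and 2 genes, and for 14, 18, 14, 9 and 13 pathway genes. Under both, 17 regions were in MAC only, of 19 and 24 regions. Leaving out promoter sites left 3, 1, 9, 1 and 25 sites. A distal reach of 50 kb left 0 sites in HP and 28 in MAC. A promoter reach of 100 bp left promoter sites for 1, 3, 2, 0 and 4 genes, and 2 kb gave 7 in MAC, adding Il1b and Il10. MAC had the most sites of the 5 stages under every setting in which sites were counted. Counting sites inside a gene although another TSS is nearer, chosen after seeing the data, gave 33 in MAC. Curated TSS, all annotated genes and edges moved none of the counts recomputed under them by over 1.5 times, nor did the other ways of merging move the 41 regions or the 25 in MAC only. Merging whole intervals gave 40 regions, the Nos2 regions of HB and HE becoming 1. The cause of the moved values was not tested. No paired analysis was possible because each stage has 1 sample. Width was the only property by which sites could be made stricter, and depth, not used here, limits every absence.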
